A study of Mus musculus with 4 samples.

Results

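The genes of 8 CC chemokines that attract monocytes, among 32285 genes counted, were followed in single cells of the mouse lung: *Ccl2*, *Ccl7*, *Ccl12*, *Ccl3*, *Ccl4*, *Ccl5*, *Ccl6* and *Ccl9*. The genes were listed by name, with earlier results of these data known. Each gene has 1 row in the count tables, and all 8 passed the filter on low counts in 3 of the comparisons of all cells, while *Ccl12* fell under it in the remaining comparison. The cells came from the left lobe of C57BL/6 wild-type male mice that were young (2 to 3 months) or aged (22 months). The cells were digested, frozen as suspensions and thawed before capture. The study describes a food-restricted diet for its aged mice and gives no diet for the young ones. Age and diet therefore cannot be told apart. At each age, 1 library came from nonventilated mice and 1 from mice that were ventilated for 3 hours at a high tidal volume with pure oxygen, under ketamine and medetomidine anesthesia with buprenorphine. The nonventilated mice had neither the anesthesia nor the vascular lines, so ventilation and the procedures that went with it cannot be told apart. Each library pooled 3 mice, and there were no replicate libraries. All differences therefore compare 1 pool with another, no p-value is given, and the 95% intervals cover counting error only.

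Chemokines are small secreted proteins that draw leukocytes along a gradient through receptors on the leukocyte surface. In the mouse, CCL2, CCL7 and CCL12 bind CCR2, the receptor by which classical monocytes leave the bone marrow and enter inflamed tissue. CCL3 and CCL5 bind CCR1, which is carried by neutrophils and monocytes, and CCL4 is a close relative of CCL3 that attracts monocytes and T cells. CCL6 and CCL9 are ligands of CCR1 that are made by myeloid cells.

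All 8 genes lie on mouse chromosome 11 (GRCm38, the same assembly as mm10). The CCR2 ligands fill a stretch of 67.8 kb, with *Ccl2* at chr11:82035571-82037453, *Ccl7* at chr11:82045712-82047525 and *Ccl12* at chr11:82101845-82103400, all on the plus strand. The other 5 genes fill a stretch of 138.9 kb that starts 1422 kb further along. They are *Ccl5* (chr11:83525778-83530518), *Ccl9* (chr11:83572919-83578636), *Ccl6* (chr11:83587882-83593087) and *Ccl3* (chr11:83647844-83649355) on the minus strand and *Ccl4* (chr11:83662584-83664683) on the plus strand. RefSeq promoter sequences (GRCm38.p6) were at hand for 4 of the 8 genes, and the 250 bases before each RefSeq start are shown, since they include *Ccl12*, with the widest response in aged mice, and the neighbors *Ccl6* and *Ccl9*, whose responses differed. They are *Ccl12* (chr11:82101595-82101844, plus strand), *Ccl3* (chr11:83649379-83649628, minus strand), *Ccl6* (chr11:83593088-83593337, minus strand) and *Ccl9* (chr11:83578637-83578886, minus strand). Capitals mark the matches, on either strand, to 5 motifs: the AP-1 type TGANTCA, the NF-kB type (GGG, any 2 bases, then TTTCC), the C/EBP type TTGCNNNAA, the PU.1 type GAGGAAG and the TATA box TATAAA.
Ccl12: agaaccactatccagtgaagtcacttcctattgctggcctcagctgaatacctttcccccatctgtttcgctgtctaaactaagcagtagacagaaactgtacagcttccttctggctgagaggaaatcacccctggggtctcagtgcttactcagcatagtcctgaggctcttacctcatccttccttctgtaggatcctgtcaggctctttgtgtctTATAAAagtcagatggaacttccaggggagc
Ccl3: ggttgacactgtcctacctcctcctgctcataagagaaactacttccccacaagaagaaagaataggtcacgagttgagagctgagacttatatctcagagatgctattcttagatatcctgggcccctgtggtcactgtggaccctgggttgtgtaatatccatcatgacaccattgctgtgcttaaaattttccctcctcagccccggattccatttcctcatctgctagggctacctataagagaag
Ccl6: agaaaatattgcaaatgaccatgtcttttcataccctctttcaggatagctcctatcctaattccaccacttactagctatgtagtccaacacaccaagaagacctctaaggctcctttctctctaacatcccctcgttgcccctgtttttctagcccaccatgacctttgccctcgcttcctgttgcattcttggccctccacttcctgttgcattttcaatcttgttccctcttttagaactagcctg
Ccl9: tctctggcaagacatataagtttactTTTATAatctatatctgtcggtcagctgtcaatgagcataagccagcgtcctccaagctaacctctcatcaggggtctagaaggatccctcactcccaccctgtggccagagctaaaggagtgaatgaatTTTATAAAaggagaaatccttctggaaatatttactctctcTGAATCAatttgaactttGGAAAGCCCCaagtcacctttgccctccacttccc
The *Ccl12* sequence held 1 match, a TATA box 31 bases before the start. The *Ccl9* sequence held 5, namely an AP-1 type match that began 53 bases before the start, an NF-kB type match at 35 bases, and TATA boxes at 92, 94 and 224 bases, of which the first 2 overlap on opposite strands. None of these letters was found in the windows of *Ccl3* and *Ccl6*. Among all 32851 promoters of the same length, 6.75% held the AP-1 type motif, 1.41% the NF-kB type, 8.29% the C/EBP type, 10.6% the PU.1 type and 12.4% the TATA box.

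The libraries held 3400 to 4497 barcodes and 40655452 to 45218176 unique molecular identifiers (UMIs, each standing for 1 captured transcript). Of 15428 barcodes, 10160 passed limits on genes, mitochondrial UMIs and total UMIs that were taken from the study's methods. The study itself reports slightly more retained cells. The libraries kept 2171 to 2976 cells, with medians of 7871 to 9104 UMIs per cell. Between 0 and 7 barcode sequences were shared by any pair of libraries. The cells fell into 31 clusters, made without chemokine and chemokine receptor genes, and 30 of them were assigned to 20 cell classes by fixed marker genes, with 335 shallow cells left unnamed. Classes were made of different clusters in nonventilated and ventilated libraries for general capillary cells, alveolar fibroblasts and both kinds of monocytes, so values within these classes compare cells that cluster apart. The cluster named T cell also had the natural killer cell gene *Gzma* among its leading genes. Levels are counts per 1000000 UMIs (CPM) after the UMIs of the cells were summed. Sets of 4 values always put the young pair before the aged pair and, within a pair, the nonventilated library first. A gene is said to have risen or fallen where its CPM differed at least 2-fold, the interval of the ratio left out 1, the mean of both libraries was at least 10 CPM and both together held at least 20 UMIs.

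In all cells together, 5 of the 8 chemokines rose with ventilation in young mice and 6 of 8 in aged mice, and none fell at either age. Of all genes tested, 5.43% rose and 9.53% fell in young mice, and 3.29% rose and 5.35% fell in aged mice. *Ccl2*, which encodes the main ligand of CCR2, stood at 50.3, 190.1, 39.9 and 132 CPM. Both ventilated libraries were above both nonventilated ones, with ratios of 3.78 (3.55 to 4.03) in young and 3.32 (3.09 to 3.57) in aged mice. *Ccl7*, its neighbor and a further CCR2 ligand, had 23.1, 114.4, 19.2 and 64.4 CPM, a ratio of 4.96 (4.53 to 5.43) in young and 3.36 (3.03 to 3.74) in aged mice. *Ccl12*, the third CCR2 ligand, had 14.3, 30.1, 2.39 and 48.7 CPM. Its ratio was 2.10 (1.85 to 2.39) in young and 20.4 (15.6 to 27.0) in aged mice, and it was highest in the aged ventilated and lowest in the aged nonventilated library.

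*Ccl3*, which encodes a ligand of CCR1, had 34.2, 133.6, 41.1 and 132.2 CPM, and both ventilated libraries were above both nonventilated ones. The ventilated level in aged over young mice was 0.989 (0.943 to 1.04). *Ccl4*, its close relative, had 63.3, 295.5, 85.2 and 324.4 CPM, a ratio of 4.67 (4.42 to 4.94) in young and 3.81 (3.63 to 3.999) in aged mice. *Ccl9* had 49.4, 94.8, 62.1 and 148.5 CPM. Its ratio of 2.39 (2.25 to 2.54) in aged mice passed the 2-fold limit, whereas 1.92 (1.79 to 2.05) in young mice did not. *Ccl6* was the most even, at 283.3, 264.5, 300.3 and 251 CPM. *Ccl5* had 81.1, 81.6, 223.1 and 144.7 CPM. *Ccl5* and *Ccl6* were highest in the aged nonventilated library, and the other 6 were highest in a ventilated one. The plot of levels by library shows these patterns side by side.

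**Figure D1:**
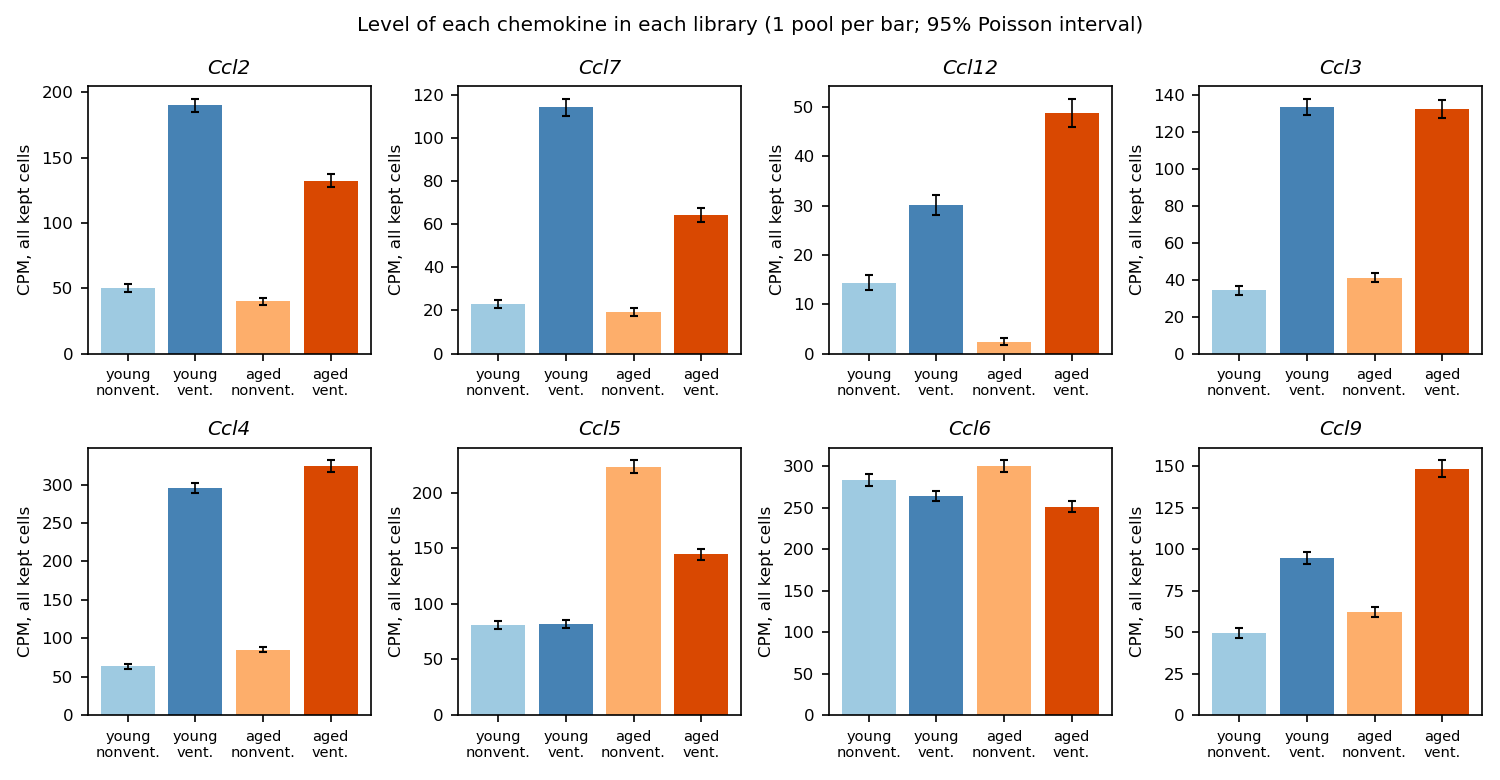
Level of each chemokine in CPM of all kept cells (y axis, from 0) in each of the 4 libraries (x axis). Each bar is 1 pool of 3 mice, and the error bars are 95% Poisson intervals of the UMI count. The ventilated bars stand above the nonventilated bars at both ages for all but *Ccl5* and *Ccl6*; *Ccl12* runs from 2.39 to 48.7 CPM.

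The mix of cells also differed between libraries. Neutrophils made up 4.78%, 7.46%, 2.38% and 11.8% of the cells. Classical monocytes made up 4.26%, 5.68%, 4.88% and 7.32%. Adventitial fibroblasts made up 5.41%, 1.71%, 4.60% and 1.61% and interstitial macrophages 3.36%, 1.98%, 3.27% and 3.18%, so that the former were a smaller share of both ventilated libraries. With the class shares of the nonventilated library held fixed (an alternative added after the data were seen), the ratio of *Ccl2* was 5.61 in young and 3.69 in aged mice, that of *Ccl7* 9.02 and 3.88, and that of *Ccl12* 3.09 and 16.3. Those of *Ccl3* were 4.37 and 2.63, those of *Ccl4* 4.84 and 3.08, and those of *Ccl9* 2.36 and 1.96. Changing the class shares alone, with the levels of the nonventilated library kept, gave ratios between 0.615 and 1.19 for all 8 genes.

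Each chemokine was held by a few cell classes. *Ccl12* was nearly all in 2 of them, interstitial macrophages (75.1% of its UMIs over the 4 libraries) and classical monocytes (22.4%). *Ccl6* was mainly in alveolar macrophages (58.2%), with classical monocytes (16.8%) and nonclassical monocytes (8.24%) next. *Ccl5* was mainly in T cells (64.6%), and *Ccl9* in classical monocytes (42.8%) and interstitial macrophages (28.0%). *Ccl2* and *Ccl7* were spread over macrophages and fibroblasts, with 35.9% and 44.8% in interstitial macrophages, 20.6% and 14.9% in alveolar fibroblasts and 14.9% and 23.7% in adventitial fibroblasts. *Ccl3* and *Ccl4* were spread over interstitial macrophages (31.5% and 22.5%), neutrophils (19.7% and 19.4%) and monocytes. Relative to all their UMIs, basophils, with 6 to 22 cells per library, were highest for *Ccl3*, *Ccl4* and *Ccl9* on average. *Ccl4* stood at 8634, 11640, 12690 and 5257 CPM in them, the last from 6 cells. The class with the highest level was the same in all 4 libraries for 3 of the 8 genes, *Ccl12*, *Ccl5* and *Ccl6*, counting classes of at least 20 cells. With smaller classes counted too, there were 5 such genes, *Ccl12*, *Ccl5*, *Ccl3*, *Ccl4* and *Ccl9*, the last 3 with basophils highest throughout. *Ccl6* was not among them, since basophils were above alveolar macrophages in the young nonventilated library. In basophils of the aged nonventilated library, all *Ccl7* UMIs were in 1 cell.

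**Figure D2:**
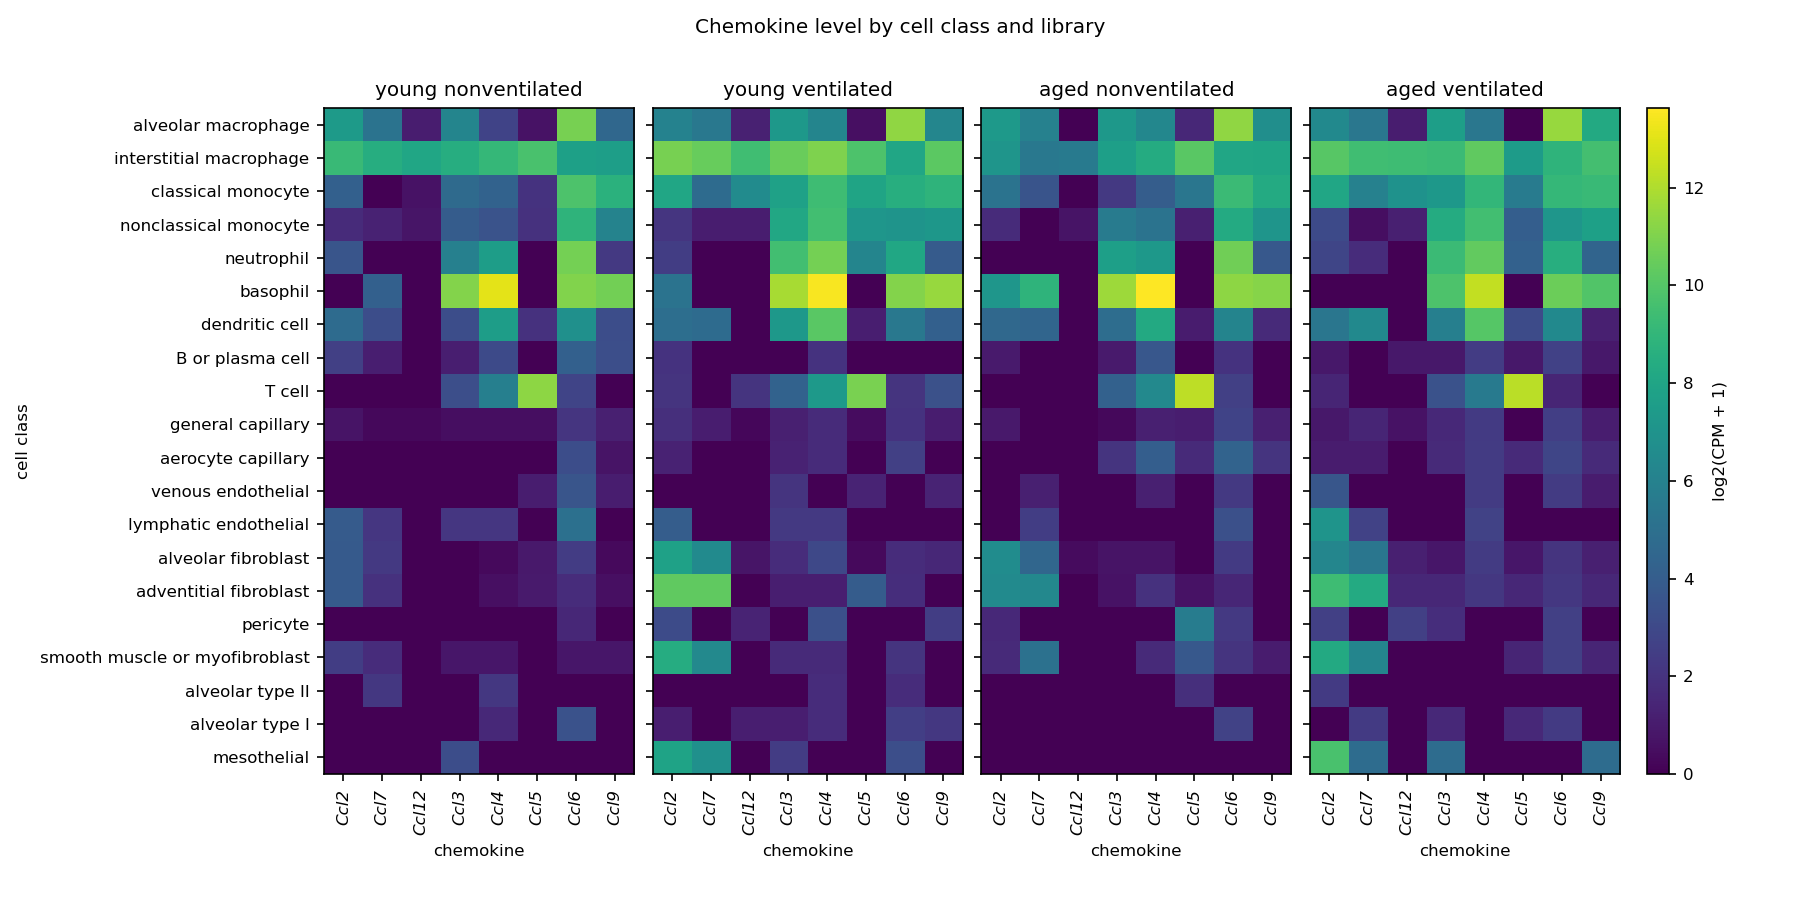
Level of each chemokine (x axis) in each of the 20 cell classes (y axis) in each library (panels), as log2(CPM + 1) from summed UMIs. The brightest cells are *Ccl4* in basophils, up to 12690 CPM, and *Ccl5* in T cells, up to 5039 CPM, while endothelial classes stay dark for nearly all 8 genes.

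Transcripts free in the suspension can add UMIs to any droplet. B or plasma cells, which are not known as a source of *Ccl2* or *Ccl12*, had a *Ccl2* UMI in 0.990% to 3.16% of cells, with medians of 7467 to 11060 UMIs per cell. In interstitial macrophages this share was 45.9%, 55.9%, 30.9% and 58.0%, with medians of 14800 to 17010 UMIs, and 28.9%, 44.8%, 16.1% and 39.7% once each cell was thinned to 2000 UMIs. General capillary cells had a *Ccl4* UMI in 0.343% to 2.73% of cells and a *Ccl6* UMI in 2.06% to 3.82%.

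The interstitial macrophage class held 59 to 85 cells per library. Of these, 13, 20, 14 and 14 cells had at least 2 UMIs of *Fscn1* and *Ccr7* together, genes that mark migratory dendritic cells, so values of the class are also given without them (an alternative chosen after the data were seen). In this class, 6 of the 8 chemokines rose with ventilation in young mice and 6 of 8 in aged mice, where 9.21% and 4.56% of genes tested rose, and 1, *Ccl5*, fell in aged mice, where 5.68% of genes fell. *Ccl2* had 607, 1809, 138 and 1092 CPM, a ratio of 2.98 (2.73 to 3.25) in young and 7.91 (6.70 to 9.39) in aged mice. Without the *Fscn1* and *Ccr7* cells the ratios were 5.73 and 7.58. *Ccl7* had 361, 1401, 43.4 and 705 CPM, with ratios of 3.88 (3.49 to 4.33) and 16.3 (12.2 to 22.1), or 8.32 and 15.0 without these cells. The ventilated level of both genes was lower in aged than in young mice, and so was the nonventilated level, by a wider margin.

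*Ccl12* in interstitial macrophages followed the same order, at 265, 700, 47.8 and 665 CPM. The ratios were 2.64 (2.31 to 3.02) and 13.9 (10.6 to 18.7), or 5.27 and 13.6 without the *Fscn1* and *Ccr7* cells. In classical monocytes, which are recruited from blood, 6 of the 8 chemokines rose and 1 fell in young mice, where 10.1% of genes rose and 12.3% fell, and 5 rose in aged mice, where 9.25% of genes rose. *Ccl12* was at 1 UMI in 108 cells of the young nonventilated library and at 194 UMIs in 169 cells of the young ventilated library (0.603 and 95.5 CPM). In aged mice it was at 0 UMIs in 121 nonventilated and at 334 UMIs in 159 ventilated cells. Set against the 3 counts that a count of 0 allows, it was 52.9-fold higher in ventilated aged mice, leaving out error in the ventilated count. The young ratio was 158 (28.1 to 6285). In young ventilated mice, 13.6% of classical monocytes had a *Ccl12* UMI, and in aged ventilated mice 23.3% (7.50% and 8.86% at 2000 UMIs per cell). Pericytes ranked next, with at most 2 UMIs per library.

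The fibroblast classes separated the ages for the 2 CCR2 ligands that they express. Adventitial fibroblasts, which surround airways and vessels, had 13.3, 1254, 89.7 and 665 CPM of *Ccl2*. The ratio was 94.1 (64.7 to 142) in young and 7.41 (6.12 to 9.01) in aged mice, where 13.5% and 9.37% of genes rose. *Ccl7* in the same cells had 2.86, 1261, 82.2 and 319 CPM, a ratio of 441.5 (202 to 1206) in young and 3.88 (3.09 to 4.87) in aged mice. Its young nonventilated value rested on 6 UMIs in 3 of 137 cells. In the young ventilated library, 37 of 51 adventitial fibroblasts had a *Ccl2* UMI, against 5 of 137 in the young nonventilated library, and no cell held over 15.1% of the UMIs. In the aged ventilated library, 6 of 35 had one, and 1 cell held 63.2% of the UMIs. The aged ratio of *Ccl2* was 5.24 without the top cells and 14.7 after thinning to 2000 UMIs per cell, which took the young ratio to 41.8. With the cells of the most UMIs left out in each library, the young ratio of *Ccl7* was 768.

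Alveolar fibroblasts, the lipid-handling cells of the alveolar wall, had 13.5, 226, 97.2 and 75.6 CPM of *Ccl2*. It rose in young mice, where 9.76% of genes rose, with a ratio of 16.8 (12.5 to 23.1) and UMIs in 134 of 535 ventilated cells. In aged mice the ratio was 0.778, but 1.37 for the mean of per-cell CPM and 1.36 after thinning to 2000 UMIs per cell, so no direction is given. *Ccl7* in these cells had 3.80, 89.96, 21.6 and 40.5 CPM and rose in young mice (ratio 23.7, 13.7 to 44.7). Its aged ratio was 1.87, but 1 cell held 71.1% of the aged ventilated UMIs, and without the top cells the ratio was 0.733. Smooth muscle cells and myofibroblasts had 4.54, 349, 2.09 and 306 CPM of *Ccl2*, so that it rose at both ages, by 76.8-fold (34.9 to 211) and 147-fold (40.0 to 1219), with 6 and 2 UMIs behind the nonventilated values. Of genes tested in these cells, 8.17% rose in young and 4.79% in aged mice. *Ccl7* rose there 37.8-fold (12.5 to 187) in young and 2.18-fold (1.35 to 3.55) in aged mice, the latter 1.43 without the top cells. Its young nonventilated value rested on 3 UMIs.

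Classical monocytes carried *Ccl2* as well, at 16.9, 264.4, 35.2 and 265.6 CPM, a ratio of 15.7 (10.7 to 23.8) in young and 7.54 (5.60 to 10.4) in aged mice. *Ccl7* was at 0 UMIs in the young nonventilated classical monocytes and at 26.6, 10.7 and 62.2 CPM in the others. It was 14.7-fold higher in young ventilated mice when set against 3 counts for the 0, and 5.81-fold (3.37 to 10.8) higher in aged ventilated mice. In young mice, *Ccl2* went the other way in alveolar macrophages, the resident phagocytes of the airspace. They had 171.4, 65.2, 162.1 and 87.4 CPM of *Ccl2*, which fell 2.63-fold (2.14 to 3.24) in young mice, where 7.89% of genes fell. Their share of cells with a *Ccl2* UMI at 2000 UMIs per cell was 25.3%, 6.48%, 15.3% and 15.4%. *Ccl7* rose in dendritic cells, which had 8.43, 26.7, 20.6 and 87.1 CPM, and 1 cell held 68.2% and 84.1% of the ventilated UMIs at the 2 ages. *Ccl2* in lymphatic endothelial cells went from 0 to 24 UMIs in aged mice, of which 1 cell held 70.8%. Mesothelial cells, with 3 to 14 cells per library, had 54 *Ccl2* UMIs in young ventilated, 30 in aged ventilated and 0 in both nonventilated libraries.

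**Figure D3:**
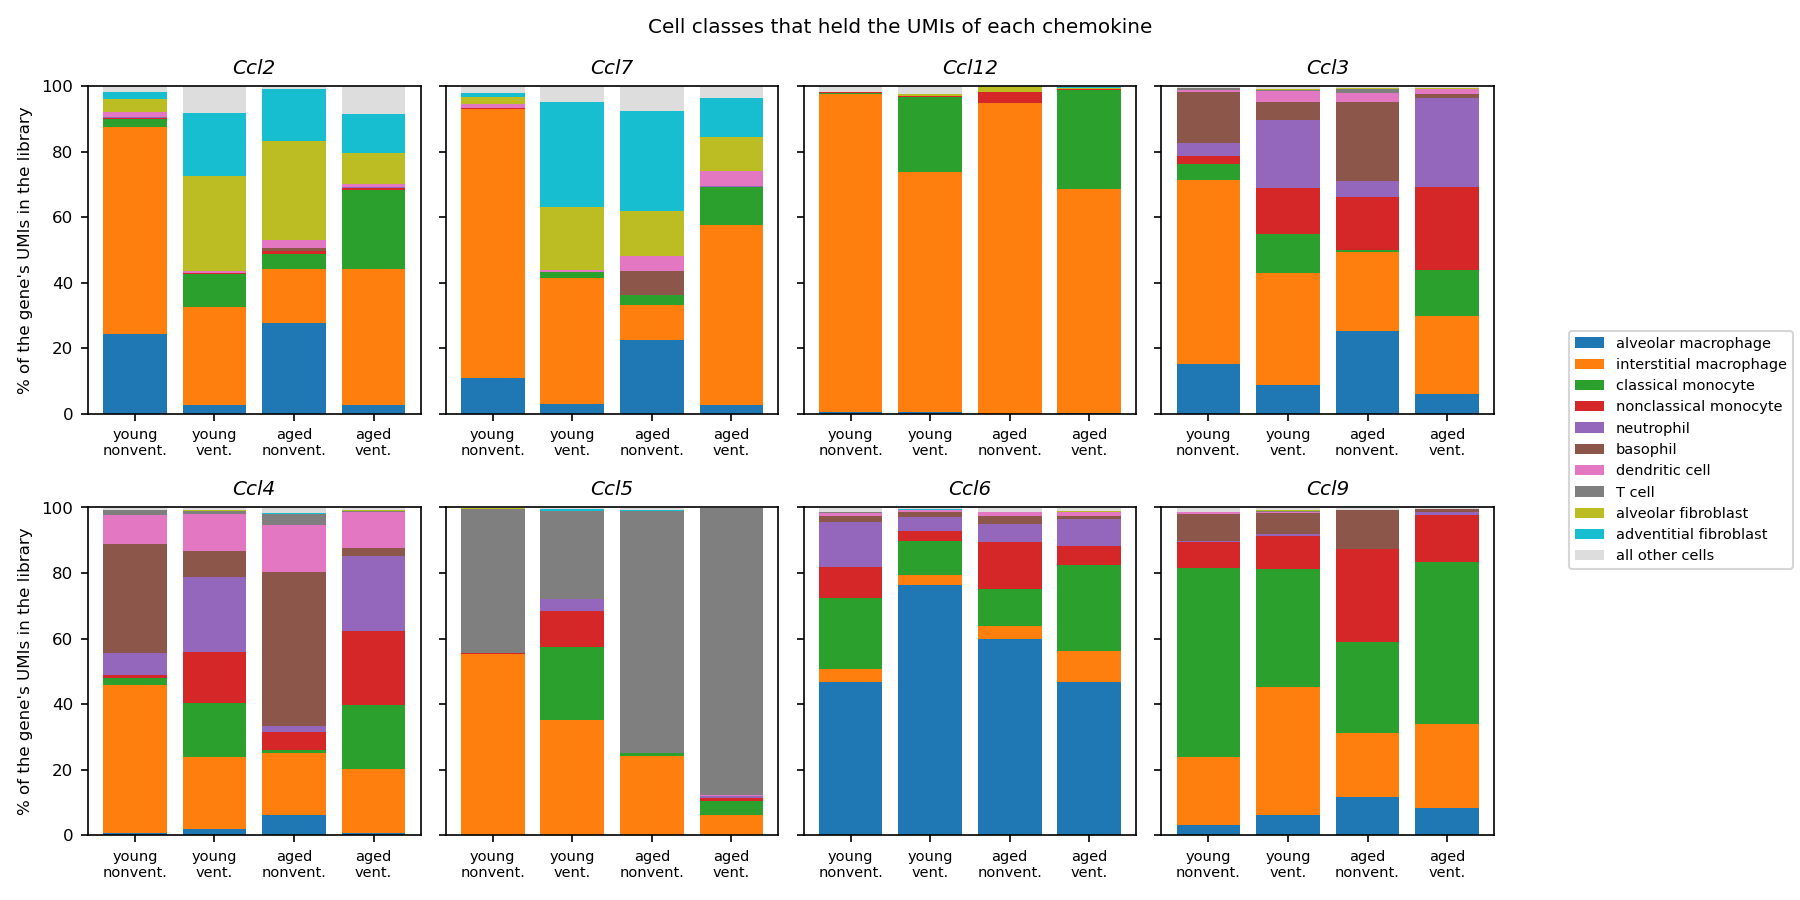
Percentage of each chemokine's UMIs in a library (y axis) that fell in 10 cell classes and in all other cells (colors), for the 4 libraries (x axis). Fibroblasts hold much of *Ccl2* and *Ccl7* in the young ventilated and aged nonventilated libraries, and T cells hold most of *Ccl5* in the aged libraries.

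*Ccl3* rose in 6 of the 6 classes where it passed the filter in young mice and in 5 of 7 in aged mice, and *Ccl4* in 7 of 7 and 5 of 7. In neutrophils, the first cells to enter an injured lung, *Ccl3* had 59.9, 717.7, 205.1 and 629.7 CPM and *Ccl4* had 193, 1739, 156 and 1299 CPM. In young mice the ratios were 11.98 (8.42 to 17.6) and 9.02 (7.39 to 11.1), where 11.2% of genes rose. In aged mice the ratios were 3.07 (2.31 to 4.17) and 8.33 (6.05 to 11.8), where 7.38% of genes rose. Among the 59 aged nonventilated neutrophils, the top cell for *Ccl3* held 74% of its UMIs and the top cell for *Ccl4* held 73.7%, and without the top cells the aged ratios were 10.9 and 29.5. The share of neutrophils with a *Ccl4* UMI was 14.9%, 46.9%, 11.9% and 45.3% (8.62%, 42.4%, 7.84% and 34.7% at 2000 UMIs per cell).

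Nonclassical monocytes, which patrol the vessel wall, had 14.5, 292.9, 50.2 and 333.5 CPM of *Ccl3* and 10.2, 725.8, 35.8 and 727.7 CPM of *Ccl4*. The ventilated libraries of both ages were close, and the nonventilated level was 3.46-fold (2.17 to 5.82) higher for *Ccl3* and 3.52-fold (2.02 to 6.65) higher for *Ccl4* in aged mice, where 2.17% of genes were higher. In these cells, 9.03% of genes rose in young and 5.73% in aged mice. *Ccl4* rose 71.5-fold (42.5 to 131) in young and 20.3-fold (16.8 to 24.8) in aged mice, and *Ccl3* 20.2-fold (12.9 to 33.3) and 6.64-fold (5.60 to 7.93). In classical monocytes, *Ccl4* had 18.7, 671, 15.3 and 529 CPM, with ratios of 35.9 (25.2 to 53.0) and 34.6 (22.3 to 56.7). *Ccl3* had 24.7, 219.1, 3.83 and 153.2 CPM there, where 1 cell held 51.9% of the young ventilated UMIs and 5 UMIs lay behind the aged nonventilated value. It rose 8.86-fold (6.42 to 12.5) and 40.0-fold (17.0 to 124).

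In interstitial macrophages, *Ccl3* had 366, 1453, 209.3 and 627 CPM and *Ccl4* had 546, 2057, 338 and 1263 CPM. They rose 3.98-fold (3.57 to 4.43) and 3.77-fold (3.45 to 4.12) in young mice, and 3.00-fold (2.59 to 3.48) and 3.74-fold (3.34 to 4.19) in aged mice. Without the *Fscn1* and *Ccr7* cells the ratios were 5.93 and 5.63 in young and 4.17 and 6.07 in aged mice. The top cell held 54.6% of the young nonventilated *Ccl4* UMIs, and without the top cells the young ratio was 6.64. The aged ventilated level of *Ccl3* was 2.32-fold (2.11 to 2.54) below the young one. Dendritic cells had 194, 1137, 306 and 1035 CPM of *Ccl4*, which rose 5.87-fold (4.90 to 7.07) and 3.39-fold (2.96 to 3.88). *Ccl3* had 8.43, 150.4, 27.8 and 58.1 CPM in them and rose 17.8-fold (7.97 to 49.5) and 2.09-fold (1.27 to 3.50), while 5.81% of genes rose in these cells in young and 4.3% in aged mice. The top dendritic cell held 33.3%, 47.6%, 51.9% and 67.4% of the *Ccl3* UMIs, and 6 UMIs lay behind the young nonventilated value. A *Ccl3* UMI was found in 14.3%, 31.7%, 10.2% and 11.8% of dendritic cells. Alveolar macrophages, where 4.9% of genes rose in young and 2.34% in aged mice, had *Ccl3* and *Ccl4* values that differed by age. *Ccl4* had 5.81, 72.6, 77.1 and 41.0 CPM and *Ccl3* 73.2, 150.9, 153 and 198.1 CPM, so that both rose in young mice (12.5-fold, 6.62 to 26.6, and 2.06-fold, 1.67 to 2.55) and neither rose in aged mice, whose nonventilated level was at or above the young ventilated level. In T cells, *Ccl4* had 58.3, 163.7, 84.2 and 46.1 CPM from 20 to 67 UMIs and rose in young mice (2.81-fold, 1.65 to 4.96), where 7.68% of genes rose. The top T cell held 55%, 32.1%, 52.2% and 25% of these UMIs. The share of T cells with a *Ccl4* UMI was 14.6%, 17.0%, 14.1% and 16.9%.

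**Figure D4:**
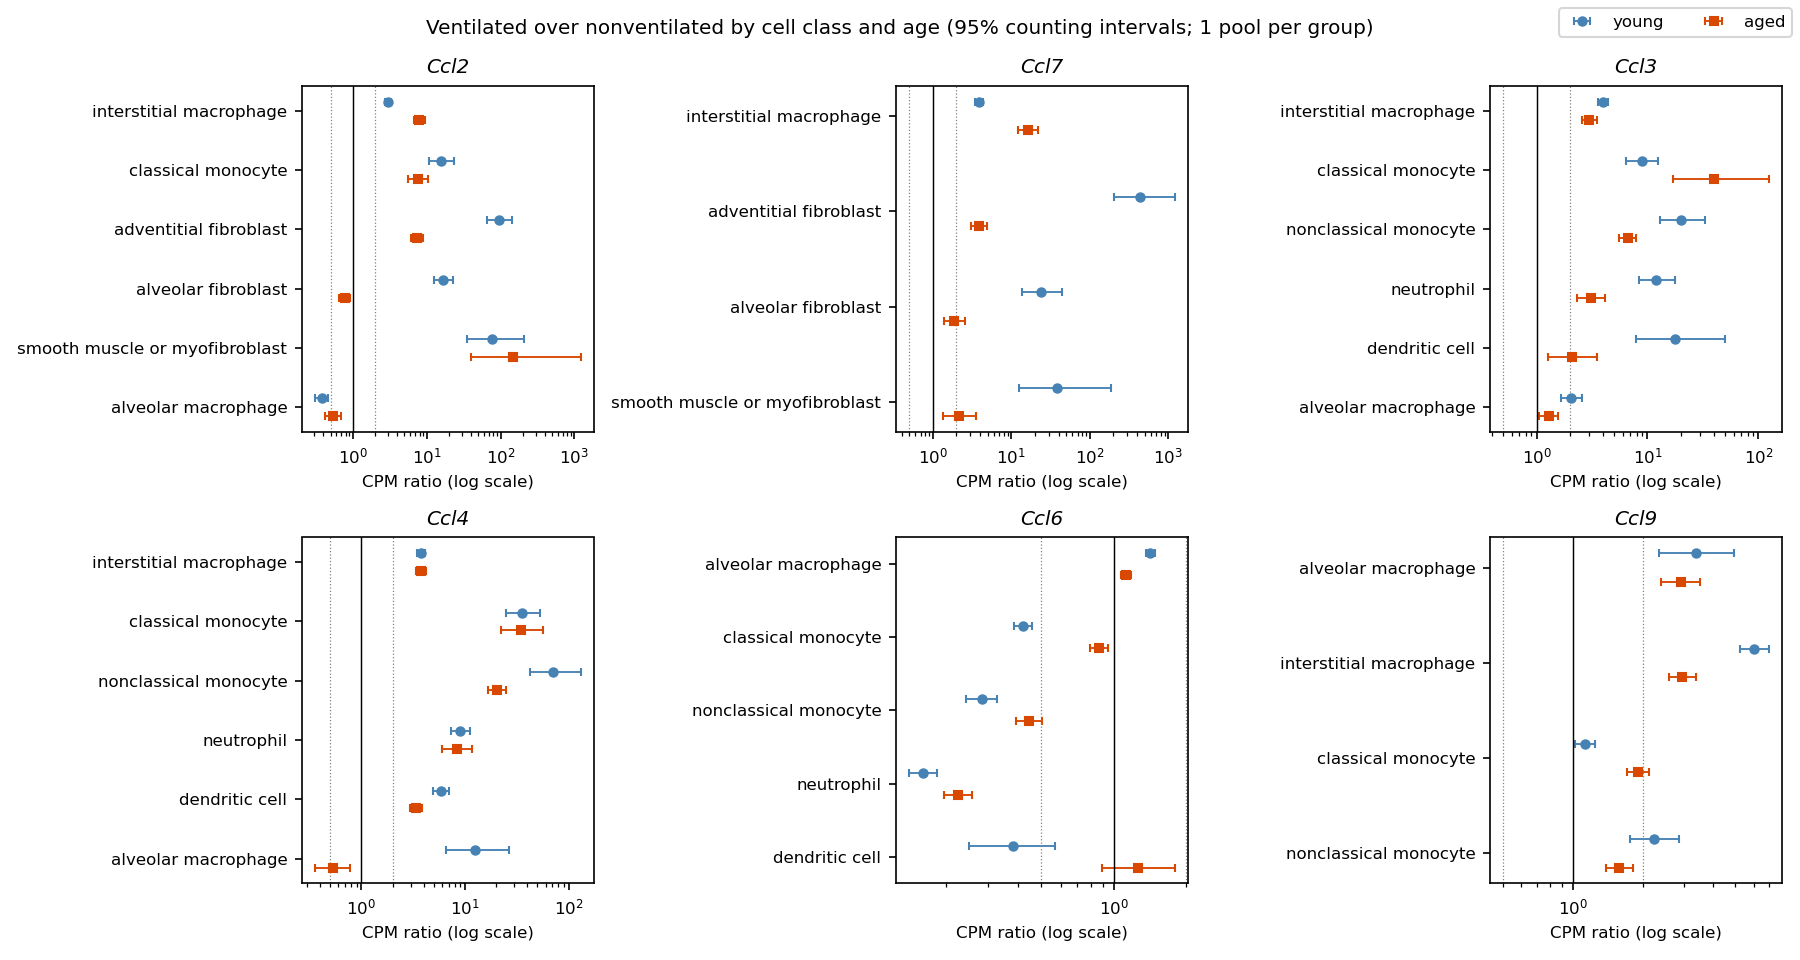
Ratio of CPM, ventilated over nonventilated (x axis, log scale), in the cell classes named for 6 of the chemokines (y axis), in young (circles) and aged (squares) mice, with 95% counting intervals from 1 pool per group. Dotted lines mark 0.5 and 2. The *Ccl6* points of neutrophils and nonclassical monocytes lie left of 0.5 at both ages, and the young *Ccl2* and *Ccl7* points of alveolar and adventitial fibroblasts lie far to the right of the aged ones.

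*Ccl5*, which attracts T cells as well as monocytes and is made by memory and cytotoxic lymphocytes, had 2506, 1894, 5039 and 4750 CPM in T cells. The aged level was 2.01-fold (1.87 to 2.17) higher in nonventilated and 2.51-fold (2.30 to 2.74) higher in ventilated mice, where 4.45% and 7.88% of genes were higher. Ventilation moved it by less than 2-fold at either age. The T cell class held 41, 47, 78 and 65 cells, and 36.6%, 31.9%, 56.4% and 55.4% of them had a *Ccl5* UMI (35.9%, 29.3%, 54.1% and 50.0% at 2000 UMIs per cell). In the interstitial macrophage class, *Ccl5* had 853, 911, 1125 and 175.5 CPM and fell 6.41-fold (5.52 to 7.47) in aged mice. Nearly all of it came from a few cells. Cells with 20 or more *Ccl5* UMIs numbered 3, 6, 6 and 2, held 99.8%, 98.5%, 96.4% and 71.6% of the UMIs, and 3, 4, 6 and 1 of them had at least 2 *Ccr7* UMIs. Without the *Fscn1* and *Ccr7* cells, *Ccl5* stood at 1.91, 146, 40.7 and 102 CPM, and the aged ratio turned from 0.156 to 2.50.

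In monocytes, *Ccl5* also came from few cells. Classical monocytes had 3.02, 250.1, 39.8 and 50.2 CPM and nonclassical monocytes 2.90, 141.2, 1.26 and 15.7 CPM. In young mice it rose 82.9-fold (35.3 to 256) and 48.7-fold (18.8 to 180.0), with 4 to 5 UMIs behind the nonventilated values and 3 cells that held 93.7% and 83.0% of the ventilated UMIs. The aged ventilated level was 4.98-fold (4.12 to 6.06) lower than the young one in classical and 8.98-fold (6.32 to 13.1) lower in nonclassical monocytes, where 2.66% and 1.86% of genes were lower. Neutrophils had 0 *Ccl5* UMIs in both nonventilated libraries and 79 and 23 in the ventilated libraries of young and aged mice. In pericytes, all 27 UMIs of the aged nonventilated library were in 1 cell.

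*Ccl6* and *Ccl9* are neighbors that differed in their response. *Ccl6* in alveolar macrophages had 1858, 2629, 2644 and 2960 CPM and was detected in 98.1% to 100% of the cells, and it passed the 2-fold limit in no comparison. It fell in neutrophils, where 22.5% of genes fell in young and 19.4% in aged mice, from 1756 to 282 CPM and from 1645 to 371 CPM, that is 6.22-fold (5.46 to 7.10) and 4.43-fold (3.87 to 5.07). The share of neutrophils with a *Ccl6* UMI went from 88.4% to 41.4% in young and from 84.8% to 51.6% in aged mice (85.3% to 29.3% and 90.2% to 36.4% at 2000 UMIs per cell). It also fell in nonclassical monocytes, from 468 to 132 CPM in young mice (3.54-fold, 3.05 to 4.13) and from 324 to 144 CPM in aged mice (2.25-fold, 1.99 to 2.56), while 11.3% and 9.34% of genes fell in these cells. In classical monocytes it fell in young mice, from 897 to 375 CPM (2.39-fold, 2.19 to 2.61), while the aged values were 629 and 546 CPM. Dendritic cells had 115.2, 43.7, 70.0 and 88.3 CPM, and it fell there in young mice (2.64-fold, 1.76 to 4.02), where 8.66% of genes fell. In aerocyte capillary cells the values rested on 6 to 18 UMIs. Over all cells *Ccl6* did not pass the 2-fold limit at either age. Alveolar macrophages held 46.7%, 76.2%, 59.8% and 46.7% of the *Ccl6* UMIs.

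*Ccl9* rose in interstitial and alveolar macrophages. In interstitial macrophages it had 195, 1178, 256 and 759 CPM and rose 6.04-fold (5.25 to 6.97) in young and 2.96-fold (2.59 to 3.39) in aged mice, or 6.39-fold and 3.10-fold without the *Fscn1* and *Ccr7* cells, with no cell above 11.9% of the UMIs in any library. In alveolar macrophages it had 22.1, 74.5, 105 and 305 CPM, so each ventilated library was above its nonventilated one and both aged libraries were above both young ones. It rose there 3.38-fold (2.36 to 4.94) and 2.91-fold (2.40 to 3.54) with ventilation. The aged level was 4.76-fold (3.33 to 6.95) higher in nonventilated and 4.10-fold (3.36 to 5.01) higher in ventilated mice, where 2.4% and 4.46% of genes were higher. The share of alveolar macrophages with a *Ccl9* UMI was 17.2%, 38.9%, 41.8% and 75.0% (4.04%, 9.26%, 14.3% and 32.7% at 2000 UMIs per cell). In nonclassical monocytes it rose in young mice (67.4 to 150.1 CPM, 2.23-fold, 1.75 to 2.85). Classical monocytes, which held the most *Ccl9* UMIs, had 417, 469, 319.9 and 611 CPM and passed the 2-fold limit at neither age.

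Between ages, 1 of the 8 chemokines differed in nonventilated mice over all cells, *Ccl5*, which was 2.75-fold (2.61 to 2.90) higher in aged mice. Of all genes tested, 0.948% differed 2-fold either way. *Ccl12* was under the filter on low counts there, with 346 UMIs in the young and 58 in the aged library, and was 5.99-fold (4.53 to 8.05) lower in aged mice. In ventilated mice, none of the 8 was 2-fold lower in aged than in young mice, where 1.50% of genes were, and none was 2-fold higher, where 0.998% were. *Ccl7* was 1.78-fold (1.67 to 1.89) lower in aged mice, and *Ccl5* was 1.77-fold higher.

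Within classes, the nonventilated ages differed in opposite directions for the CCR2 ligands. In interstitial macrophages, *Ccl2*, *Ccl7* and *Ccl12* were lower in aged mice, by 4.40-fold (3.70 to 5.25), 8.31-fold (6.20 to 11.4) and 5.55-fold (4.17 to 7.53), where 3% of genes were lower. Without the *Fscn1* and *Ccr7* cells, the young and aged nonventilated levels were 548 and 175 CPM for *Ccl2*, 270.2 and 56.6 for *Ccl7* and 201.5 and 62.2 for *Ccl12*. In alveolar fibroblasts, *Ccl2* and *Ccl7* were higher in aged mice, by 7.23-fold (5.28 to 10.1) and 5.69-fold (3.11 to 11.3), where 1.2% of genes were higher. In adventitial fibroblasts they were higher by 6.73-fold (4.48 to 10.5) and 28.8-fold (12.9 to 79.7), where 2.01% of genes were higher. The top cells held 47.7% of the *Ccl2* and 54.9% of the *Ccl7* UMIs of the aged library, and 6 *Ccl7* UMIs lay behind the young value. Alveolar macrophages of aged nonventilated mice had more *Ccl3*, 2.09-fold (1.68 to 2.61), and more *Ccl4*, 13.3-fold (6.99 to 28.4). After ventilation, alveolar fibroblasts had 2.99-fold (2.63 to 3.41) less *Ccl2* and 2.22-fold (1.86 to 2.67) less *Ccl7* in aged than in young mice, and adventitial fibroblasts had 3.96-fold (3.37 to 4.68) less *Ccl7*, where 2.59% and 4.72% of genes were lower. Interstitial macrophages had 2.32-fold less *Ccl3* and 5.19-fold (4.44 to 6.09) less *Ccl5*, where 4.08% of genes were lower. Without the *Fscn1* and *Ccr7* cells, *Ccl5* was 1.43-fold (1.04 to 1.97) lower and no longer passed the limit. Lower past it were *Ccl2* (2.36-fold), *Ccl7* (2.66-fold), *Ccl3* (3.53-fold) and *Ccl4* (2.27-fold), and *Ccl6* was 2.06-fold higher. The share of all genes past the limit without these cells is not given. *Ccl7* in classical monocytes was 2.34-fold (1.71 to 3.24) higher in aged ventilated mice, where 0.985% of genes were higher.

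The ratio of the aged to the young response set both ages in 1 value. Its values are close to the quotients of the ratios given above, but not exactly equal to them. Over all cells it was 9.62 (7.19 to 12.9) for *Ccl12*, 5.27 with the class shares held fixed and 3.66 with no upper limit on genes or UMIs. It was 1.25 (1.14 to 1.37) for *Ccl9*, but 0.830 with the class shares held fixed, so no direction is given. The other 6 lay between 0.645 and 0.896, of which *Ccl2* and *Ccl6* also crossed 1 under some alternatives (1.23 for *Ccl2* after thinning to 2000 UMIs per cell, and 1.09 for *Ccl6* with the class shares held fixed). In adventitial fibroblasts the ratio was 0.0800 (0.0527 to 0.121) for *Ccl2*, 0.365 after thinning and 0.0383 without the top cells. For *Ccl7* it was 0.00950 (0.00426 to 0.0212) there, with 6 UMIs behind the young nonventilated value, and 0.0289 after thinning. In alveolar fibroblasts it was 0.0468 (0.0335 to 0.0653) for *Ccl2*, where the aged response itself has no clear direction, and 0.0920 after thinning, which put the aged response above 1. For *Ccl7* it was 0.0816 (0.0443 to 0.151), and 0.0152 without the top cells, which put the aged response below 1. In interstitial macrophages it was above 1, at 2.65 (2.20 to 3.19) for *Ccl2*, 4.15 (3.06 to 5.62) for *Ccl7* and 5.24 (3.87 to 7.09) for *Ccl12*. Without the *Fscn1* and *Ccr7* cells these values were 1.32, 1.78 and 2.57, each below its interval, and that of *Ccl12* was 1.84 with no upper limit on genes or UMIs. These intervals cover counting error and not the spread between mice.

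CC chemokine receptors were counted in the same cells. *Ccr1* rose at both ages, with 31.4, 66.8, 20.3 and 92.0 CPM (2.13-fold, 1.96 to 2.32, and 4.53-fold, 4.10 to 5.004). It was highest in neutrophils, at 752.5, 700.2, 529.3 and 787.5 CPM, which did not pass the 2-fold limit at either age. Neutrophils were a larger share of the ventilated libraries, and their part in the rise over all cells was not tested. *Ccr2* fell from 86.9 to 41.5 CPM in young mice (2.10-fold, 1.95 to 2.26), while it went from 49.1 to 88.5 CPM in aged mice, below the 2-fold limit. In ventilated mice it was 2.14-fold (1.99 to 2.30) higher in aged than in young mice. In classical monocytes, its main class, *Ccr2* had 881.6, 384.6, 500.6 and 563.9 CPM and fell in young mice (2.29-fold, 2.10 to 2.50), while *Ccr1* rose 4.39-fold (3.43 to 5.69) and 7.74-fold (5.62 to 10.9) in young and aged mice. The list also held *Ccr6* and *Ccr7*, receptors that bind none of the 8 chemokines. *Ccr6* was at 18.1 CPM in aged ventilated mice against 2.25 in young ventilated and 5.60 in aged nonventilated mice, while B or plasma cells made up 4.24%, 1.24% and 4.07% of these libraries, and their part in the difference was not tested. *Ccr7* in aged nonventilated mice was 2.29-fold (2.05 to 2.57) above the young level.

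Atypical receptors bind chemokines without signalling for migration. *Ackr1*, which carries chemokines across venules, was held by venous endothelial cells, with 9, 134, 5 and 213 UMIs (10.0, 212.7, 6.31 and 226.3 CPM). It rose there 21.2-fold (10.9 to 47.4) in young and 35.9-fold (15.1 to 112) in aged mice. *Ackr2*, a scavenger of inflammatory CC chemokines, had 130.7, 267.4, 68.7 and 223.5 CPM in lymphatic endothelial cells, from 15 to 71 UMIs, and rose 2.05-fold (1.36 to 3.13) and 3.26-fold (1.76 to 6.33). Capillary cells held more of its UMIs: 285 in general and 212 in aerocyte capillary cells of the young nonventilated library, against 37 in lymphatic endothelial cells. Aerocyte capillary cells had 137.2, 105.9, 126.9 and 130.6 CPM of *Ackr2*, and general capillary cells 61.9, 74.2, 70.5 and 82.9 CPM. Over all cells *Ackr2* stayed between 20.0 and 23.5 CPM. *Ccrl2*, which presents the attractant chemerin, rose 2.86-fold (2.68 to 3.05) and 2.61-fold (2.45 to 2.78) over all cells.

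Of the 12 other CC chemokines listed, 6 rows passed the filter. *Ccl19* rose at both ages, at 10.7, 29.3, 9.44 and 26.4 CPM, but has near-identical copies in the mouse genome and is uncertain. *Ccl11*, an attractant of eosinophils that lies between *Ccl7* and *Ccl12* on the chromosome, rose from 10.7 to 47.8 CPM in young mice (4.48-fold, 3.92 to 5.14) and was 2.02-fold (1.74 to 2.35) higher in aged than in young nonventilated mice. *Ccl22* fell from 34.4 to 15.9 CPM in aged mice and was 2.69-fold (2.39 to 3.04) lower in aged than in young ventilated mice. Of 8 other factors that attract or sustain monocytes, *Cxcl14* rose at both ages (3.40-fold, 3.26 to 3.54, and 2.59-fold, 2.47 to 2.72), *Cx3cl1* rose in young mice (2.06-fold, 1.84 to 2.32), and *Cxcl12* fell at both (3.16-fold, 2.96 to 3.38, and 2.65-fold, 2.49 to 2.82). Of 10 stress genes known to rise when tissue is dissociated, none rose with ventilation at either age, and *Hspa1a* and *Hspa1b* fell in young mice (2.20-fold and 3.24-fold). Among all genes tested over all cells, 5.43% rose and 9.53% fell in young mice, and 3.29% rose in aged mice. At such shares, a list of 10 genes is too short for the lack of a rise to be informative. Whether stress from dissociation differed between libraries was not tested.

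As a description, the genes most like each chemokine over 74 sums of a class and a library, among 9744 genes, were found by Pearson correlation of log2(CPM + 1). The sums share libraries and differ in depth. *Ccl2* was most like *Mmp19* (0.83), *Plekhm2* (0.71) and *Igf1* (0.70), and *Ccl7* was most like *Igf1* (0.76), *Batf3* (0.74) and *Mmp19* (0.72). *Ccl12* was most like the complement genes *C1qc* (0.89) and *C1qb* (0.88) and *C3ar1* (0.88), the first 2 being markers that named the interstitial macrophage class. *Ccl3* was most like *Tnf* (0.90), *Bcl2a1a* (0.90) and *Nlrp3* (0.89), and *Ccl4* was most like *Bcl2a1b* (0.89), *Bcl2a1a* (0.89) and *Tnf* (0.88). *Ccl5* was most like *Il7r* (0.85), *Dok2* (0.77) and *Il1rl1* (0.74), *Ccl6* was most like *Mcemp1* (0.94), *Alox5ap* (0.92) and *Cd300c2* (0.91), and *Ccl9* was most like *Fcgr1* (0.93), *Clec4a2* (0.90) and *Msr1* (0.90). Among the 8, the neighboring pairs *Ccl2* and *Ccl7* and *Ccl3* and *Ccl4* were the most alike, at 0.89 each.

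The pairs were also found in the same cells. In young ventilated mice, 29 of the 31 interstitial macrophages with a *Ccl7* UMI had a *Ccl2* UMI, against 14.3% of those without *Ccl7*, and in aged ventilated mice 29 of 31 had one, against 28.9%. In young ventilated adventitial fibroblasts, 23 of the 25 cells with *Ccl7* had *Ccl2*, against 53.8% of those without. In neutrophils, 75 of the 104 young ventilated cells with *Ccl4* had *Ccl3*, against 28.8% of those without, and 80 of 116 aged ventilated cells had both, against 31.4%. The part of differences in depth between cells in these shares was not tested.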

How the data were processed

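Single cells of 4 lung pools were measured by droplet 3' RNA sequencing. Per the labels, the authors made the deposited UMI counts, whole numbers per gene and barcode with no normalization, with Cell Ranger 7.0.0 and mm10, the tool and build named in the submitters' processing notes. The study's limits kept barcodes of 200 to 5000 genes, at most 10% mitochondrial UMIs and at most 28597.11 UMIs. Cells were clustered with Seurat 5.3.0 in R 4.3.3 (2000 variable genes without chemokine and receptor genes, 37 components, resolution 0.5) and named from fixed markers. The doublet caller Scrublet (scanpy 1.11.5) marked 38 cells (0.374%), too few to be trusted, so doublets were kept and the 466 cells of the highest scores were left out as an alternative.

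UMIs were summed per class and library. Levels carry exact Poisson intervals, shares Clopper-Pearson intervals and ratios exact conditional binomial intervals (scipy 1.17.1), all at 95% and covering counting error only. Classes of under 20 cells in a library were not compared. A count of 0 allows up to 3 counts. Shares of cells were also taken after thinning each cell to 2000 UMIs, leaving out shallower cells. The contrasts were tested on simulated data.

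The 8 genes and all lists were chosen with earlier results of these data known. All 8 genes are named, with the 3 classes of highest mean CPM each, except that basophil levels of *Ccl6* and *Ccl7* are not given. Also named are every class with a 2-fold call, the called genes of the lists, and the 3 genes most like each chemokine. Chosen after values were seen were the class shares held fixed, the interstitial macrophages without *Fscn1* and *Ccr7* cells, the ratio of responses under each alternative, the leading class with small classes counted, and the search of the TATA box on both strands. Promoter sequences are from RefSeq (GRCm38.p6), and the alternatives changed cell limits, clustering, normalization, thinning, single high cells and the filter on low counts. Values of 1 gene of the lists are not reported here.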

Additional observations from a re-analysis of the deposited data

Results flagged for a closer look

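In 3 flagged cases, the ratio of ventilated to nonventilated levels lay on opposite sides of 1 at the 2 ages. Each is from 1 pool per group, and the difference was not tested over mice. There were others, among them *Ccl6* in dendritic cells (0.379 in young and 1.263 in aged mice). *Ccl4* in alveolar macrophages had a ratio of 12.5 in young and 0.531 in aged mice. *Ccl4* in T cells had a ratio of 2.809 in young and 0.5468 in aged mice, from 20 to 67 UMIs per library. The top cell held 55% of the young and 52.2% of the aged nonventilated UMIs, while 14.1% to 17.0% of T cells had a *Ccl4* UMI. *Ccl2* in alveolar fibroblasts had a ratio of 16.81 in young and 0.7777 in aged mice, and the aged ratio was above 1 when each cell was thinned to 2000 UMIs (1.361).

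Barcodes over the limit on genes or UMIs, which were left out of all levels above, also held these chemokines. There were 441 such barcodes in nonventilated and 367 in ventilated young mice, and 565 and 405 in aged mice. Among them *Ccl2* was 3.036-fold higher in ventilated than in nonventilated young mice and 3.047-fold higher in aged mice. *Ccl9* was 2.828-fold and 2.466-fold higher. *Ccl7* (4.128-fold) and *Ccl3* (2.597-fold) rose in young mice, and *Ccl12* (3.74-fold), *Ccl4* (2.575-fold) and *Ccl5* (3.006-fold) rose in aged mice. The young *Ccl12* ratio was larger, at 6.252 (3.91 to 10.47), but its mean level was under 10 CPM. *Ccl5* fell in young mice, from 25.88 to 2.568 CPM (375 and 34 UMIs), a ratio of 0.09919. Differences between ages were not tested.

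Barcodes over the mitochondrial limit or under the gene limit, 656 and 1154 in young and 856 and 824 in aged mice (nonventilated first), held fewer UMIs of these genes. In young mice *Ccl2* (3.848-fold) and *Ccl9* (3.32-fold) rose and *Ccl6* fell (a ratio of 0.3635), and in aged mice *Ccl3* (2.885-fold), *Ccl4* (2.115-fold), *Ccl5* (2.731-fold) and *Ccl6* (2.668-fold) rose.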

How the results depend on the processing

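No paired analysis was possible because each group is 1 library and the labels give no replicate numbers, and for the same reason no replicate could be left out. The number of chemokines that rose over all cells ran from 4 to 6 in young and from 4 to 6 in aged mice over the alternatives, and none of the 8 was 2-fold lower in aged than in young ventilated mice under any of those run. Without the filter on low counts, 2 of the 8 differed between ages in nonventilated mice, *Ccl12* and *Ccl5*, in place of 1. The shares of all genes under these settings are not given. Of the ratios recomputed by member and class, 849 stayed within their counting interval. In all, 27 of 1093 ended on the other side of 1, from 13 combinations of a member, a class and an age, among them the aged *Ccl2* and *Ccl7* ratios of alveolar fibroblasts. In 25 of the 27 the reported ratio had not passed the 2-fold limit, and in 2 it had. These 2 were *Ccl5* in aged interstitial macrophages, at 2.502 without the *Fscn1* and *Ccr7* cells, and *Ccl6* in aged aerocyte capillary cells, at 1.037 without the cells of the 5% highest doublet scores, where the cause was not tested. The ratio of the aged to the young response over all cells crossed 1 for *Ccl2* (1.125 for the mean of per-cell CPM and 1.234 after thinning), *Ccl6* (1.066 at the UMI limit of the 93rd percentile, 1.056 for the mean of per-cell CPM and 1.085 at fixed class shares) and *Ccl9* (0.8406, 0.7391 and 0.8298 for the mean of per-cell CPM, thinning and fixed class shares), and the cause was not tested. Of the levels, 840 stayed within their interval and 459 moved. Thinning each cell to 2000 UMIs took the aged ratio of *Ccl4* over all cells from 3.81 to 2.43. Leaving out the top cell took the aged ratio of *Ccl7* in dendritic cells from 4.23 to 1.96. With classes of under 20 cells counted, 5 in place of 3 genes had the same leading class in all 4 libraries. At the lower clustering resolution of 0.18 no interstitial macrophage class was formed. With 1 pool per group, the spread between mice is not known, and levels of classes with few UMIs are limited by depth.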
